A study of Mus musculus with 14 samples.

Results

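let-7 target transcripts were followed through all the sequencing assays of cultured mouse muscle stem cells (MuSCs), the cells that regenerate skeletal muscle. The set held 10 genes, taken from the known targets of let-7 and matched by symbol, of 14837 genes in the input table: Hmga2, Igf2bp1, Igf2bp2, Igf2bp3, Arid3b, E2f5, Nras, Dicer1, Tgfbr1 and Hic2. All 10 had a row in the input table, 5 in the m6A-RIP table, 6 in the Igf2bp3-RIP table and 4 in the Lin28a-RIP table. The study compared control MuSCs with Lin28a-positive (Lin28a+) MuSCs, and no allele or agent is named in the labels beside these genotypes. The study's text names a reporter mouse, Lin28a-CreERT2; LSL-tdTomato, as the source of sorted Lin28a+ cells: Cre under control of Lin28a turns on the red protein tdTomato there, and the labels do not say how the control cells were sorted. All MuSCs were grown on Matrigel in DMEM with fetal bovine serum. For each of the 7 groups there were 2 libraries, 14 in all: input RNA, m6A-RIP and Igf2bp3-RIP from both genotypes, and Lin28a-RIP from Lin28a+ MuSCs. Nothing in the labels says that the 2 libraries of a group came from separate cultures or animals, so the p-values measure the spread between these libraries, which may be technical.

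let-7 is a family of microRNAs that accumulates as cells mature. A mature let-7 guides an Argonaute protein to transcripts that pair with its seed, bases 2 to 8, and the transcript is then degraded or translated less. Lin28a is an RNA-binding protein of embryonic cells that binds the precursors of let-7 and blocks their processing, so a rise of let-7 targets is what the textbook pathway predicts where Lin28a is present. The set also holds transcripts that are themselves part of growth control: the Igf2bp proteins stabilise and localise mRNAs, Hmga2 is a chromatin protein of fetal and stem cells, Nras is a small GTPase, and Dicer1 cuts the let-7 precursors. Mature let-7 was not measured in the assays analysed here.

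The family is shown here for its shared seed. The 9 mature 5′ strands of let-7 and miR-98 in RefSeq (GRCm38.p6) differ along their 3′ part, whereas their seeds, printed in capitals, are a single sequence.
mmu-let-7a-5p: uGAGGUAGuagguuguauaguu
mmu-let-7b-5p: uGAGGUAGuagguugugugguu
mmu-let-7c-5p: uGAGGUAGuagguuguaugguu
mmu-let-7d-5p: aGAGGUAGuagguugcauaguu
mmu-let-7e-5p: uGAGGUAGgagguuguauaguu
mmu-let-7f-5p: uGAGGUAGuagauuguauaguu
mmu-let-7g-5p: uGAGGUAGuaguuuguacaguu
mmu-let-7i-5p: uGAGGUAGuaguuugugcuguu
mmu-miR-98-5p: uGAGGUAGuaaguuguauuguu

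A transcript pairs with this seed through the letters CUACCUC. Of the 1679 mature names in the same RefSeq table, 11 carry the seed, the other two being mmu-let-7k and mmu-miR-1961. The precursor hairpins are where Lin28 proteins bind, and the letters GGAG occur in 9 of the 12 let-7 family hairpins (75.0%) and in 44.5% of all 1005 hairpins. No peak of the Lin28a-RIP or the Igf2bp3-RIP table overlapped any of the 12 hairpins. The nearest peaks, named for Mir98, lay 656 bp (Lin28a-RIP) and 662 bp (Igf2bp3-RIP) from the Mir98 hairpin. Whether these libraries could hold RNA as short as a precursor was not tested.

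The input libraries held estimated counts that summed to between 4842915 and 6220960, and the RIP libraries held whole-number counts that summed to between 9215355 and 36610494. Between the 2 libraries of a group, the chi-square per degree of freedom, which is 1 for sampling noise alone, was 1.70 and 1.80 for input, over only the 512 and 504 genes of moderate level with whole-number values in every library. It was between 3.62 and 3.82 for m6A-RIP and Lin28a-RIP and 33.5 and 36.4 for Igf2bp3-RIP, over 16480 to 17927 rows. Of 10 myogenic markers, all 10 were tested in the input, where 3 were higher in Lin28a+ MuSCs, 5 were lower and 2 did not pass, and of all genes 28.1% were higher and 28.7% lower. Their summed level was 9872 to 10081 CPM in the control libraries and 11739 to 11864 CPM in Lin28a+ MuSCs (CPM, the count scaled to a common library size with TMM factors). The higher ones were Myog (log2 fold change 1.86), Cdh15 (0.77) and Pax7 (0.36), and the lower ones were Megf10 (-2.21), Vcam1 (-1.93), Myf5 (-1.21), Sdc4 (-1.10) and Des (-0.53), with a median of -0.29 over the 10. The part of these markers in the results below was not tested. The endothelial markers (3 of 7 with a row, none tested) summed to at most 0.827 CPM and the macrophage markers (5 of 6, none tested) to at most 3.25 CPM in any input library. Of 8 fibro-adipogenic markers 3 were tested (1 higher, 1 lower), and the list summed to 269 to 274 CPM in the control libraries and 193 to 194 CPM in Lin28a+ MuSCs. Of 7 pericyte or smooth muscle markers 4 were tested (3 higher, 1 lower), and the list summed to 5548 to 5593 and 7621 to 7636 CPM, nearly all of it Acta2, an actin that cultured myoblasts also express.

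Most of the let-7 targets with enough RNA to test were lower, not higher, in Lin28a+ MuSCs. Of the 8 targets tested, 5 fell (Hmga2, Tgfbr1, Dicer1, Nras and Igf2bp2), 1 rose (Igf2bp3), and 2 did not pass the test (E2f5 and Hic2) at a Benjamini-Hochberg adjusted p under 0.05 in edgeR's quasi-likelihood test over all genes. Among all 11317 genes tested, 56.8% passed in this comparison, 28.1% as higher and 28.7% as lower. The median log2 fold change was -0.39 over the 8 targets and 0.01 over all genes. In the input table the Lin28a+ columns bear m6A-RIP names, and they were read as input because the labels of the Lin28a+ input samples point to that table. In these bulk libraries, fewer cells that carry a transcript and less of it per cell cannot be told apart.

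**Figure D1:**
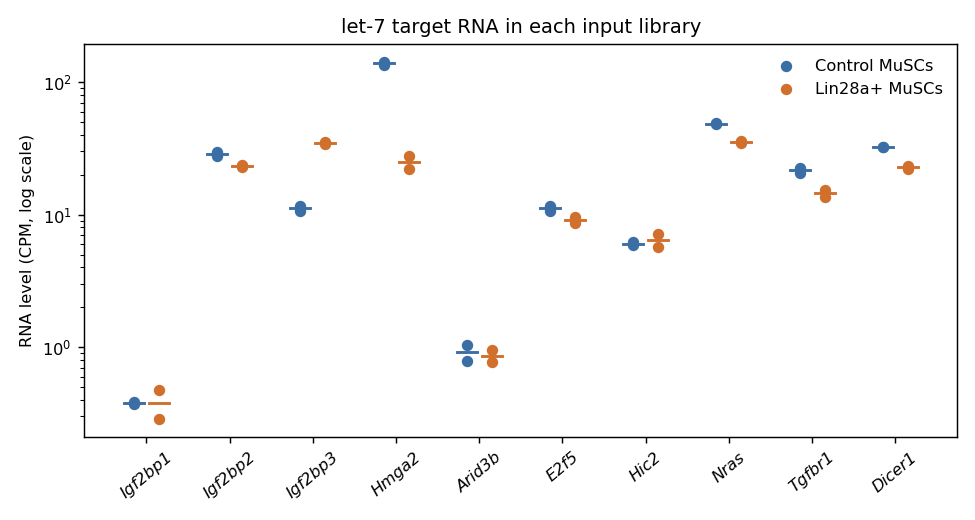
RNA level of the 10 let-7 targets in each of the 4 input libraries (CPM after TMM scaling, log scale); points are libraries, short lines the mean of 2, blue for control and orange for Lin28a+ MuSCs. Hmga2 was far lower and Igf2bp3 far higher in both Lin28a+ libraries, Igf2bp1 and Arid3b were near or under 1 CPM, and levels are not comparable between genes because no transcript length was used.

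Hmga2, whose transcript is among the best-known let-7 targets, showed the deepest fall of the set. Its RNA was at 142 and 135 CPM in the control libraries and at 21.9 and 27.7 CPM in the Lin28a+ libraries. The groups lay far apart, and the log2 fold change was -2.48 (SE 0.08), which is 5.59-fold lower, with an adjusted p of 1.4e-05 in edgeR. The fold change stood at percentile 1.59 of all genes tested.

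Igf2bp3 moved the opposite way. This mRNA-binding protein, a reader of m6A that fetal cells express, had RNA at 11.6 and 10.7 CPM in control and at 35.6 and 34.0 CPM in Lin28a+ MuSCs. Both Lin28a+ libraries stood above both controls, by 3.13-fold (log2 fold change 1.65, SE 0.07, adjusted p 2.9e-05 in edgeR), and 98.3% of all genes had a lower fold change. Its relative Igf2bp2 did not share the rise. Igf2bp2 was at 27.7 and 29.5 CPM in control and at 23.0 and 23.5 CPM in Lin28a+ MuSCs, a log2 fold change of -0.31 (SE 0.08, adjusted p 0.025 in edgeR). The call was lost without control replicate 2, Lin28a+ library a or Lin28a+ library b, where the adjusted p in edgeR was 0.16, 0.11 and 0.069, and was kept without control replicate 1 (0.029). Igf2bp1, the third member of the family, had estimated counts of 2.0, 2.4, 2.4 and 1.4, no more than the floor of 3 counts, and was not tested.

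The remaining signalling and processing targets fell by less. Tgfbr1, a receptor of TGF-beta, was at 22.7 and 20.5 CPM in control and at 15.3 and 13.7 CPM in Lin28a+ MuSCs (log2 fold change -0.57, SE 0.09, adjusted p 0.0026 in edgeR). Dicer1 was at 32.1 and 32.5 CPM against 23.3 and 22.1 CPM (log2 fold change -0.51, SE 0.06, adjusted p 0.00061 in edgeR). Nras was at 48.2 and 49.1 CPM against 34.8 and 35.7 CPM (log2 fold change -0.47, SE 0.05, adjusted p 0.00043 in edgeR). In all 3 genes both Lin28a+ libraries lay below both control libraries.

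The transcription factors of the set gave no call. E2f5, an E2F protein of the cell cycle, was at 10.6 and 11.7 CPM in control and at 8.65 and 9.61 CPM in Lin28a+ MuSCs, with a log2 fold change of -0.28 (SE 0.17, adjusted p 0.22 in edgeR). The 2 groups did not overlap, but the difference did not pass. Hic2, a zinc-finger repressor, was at 6.19 and 5.88 CPM against 7.18 and 5.73 CPM. The Lin28a+ libraries enclosed the controls, and the log2 fold change of 0.10 (SE 0.23) did not pass. Arid3b, a DNA-binding partner of chromatin complexes, had estimated counts of 4.2 and 6.5 in control and 4.8 and 3.8 in Lin28a+ MuSCs and stayed below the filter on low counts.

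**Figure D2:**
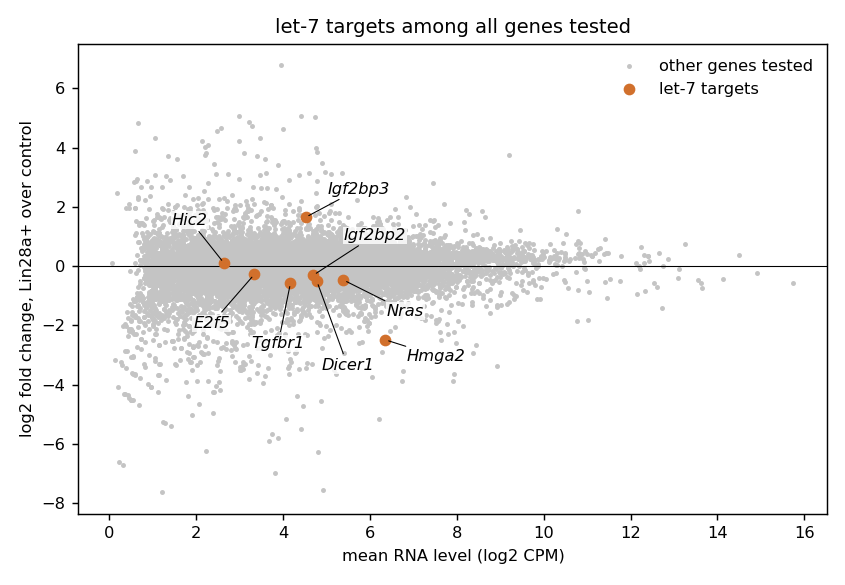
Mean RNA level (log2 CPM, x axis) against the log2 fold change of Lin28a+ over control MuSCs (y axis) for the 11317 genes tested; orange points are the 8 let-7 targets tested. Igf2bp3 lies near the upper edge of the cloud and Hmga2 near its lower edge, while the other targets lie within it.

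The choice of test mattered for the smaller changes. With DESeq2, which called 26.9% of 11317 genes, 2 of the 8 targets passed, Hmga2 and Igf2bp3. Nras, Dicer1, Tgfbr1 and Igf2bp2 kept their direction there with adjusted p of 0.065, 0.11, 0.16 and 0.42.

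Beyond these genes, a longer list of transcripts known or proposed as let-7 targets also held genes of both directions. Of 25 genes, 19 were tested, of which 4 were higher, 8 were lower and 7 did not pass, where 28.1% of all genes were higher and 28.7% lower, with a median log2 fold change of -0.29 against 0.01 over all genes. The lower ones with the smallest p were the cell cycle cyclins Ccnd1 (log2 fold change -2.94, SE 0.03) and Ccnd2 (-2.30, SE 0.03). The higher ones with the smallest p were Trim71 (1.28, SE 0.05), a stem cell RNA-binding protein that is a let-7 target from worms to mammals, and Irs2 (1.09, SE 0.07), an adaptor of the insulin receptor. DESeq2 called 2 of the 19 as higher and 5 as lower.

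The genes that make and use let-7 were read against the same background. Of 21 genes of microRNA processing and action, 20 were tested, of which 5 were higher, 7 were lower and 8 did not pass, with a median log2 fold change of -0.05, and 56.8% of all genes passed. Ago2, the Argonaute that can cleave its target, had a log2 fold change of -0.35 (SE 0.02). Tut7, which adds uridines to let-7 precursors, had -0.94 (SE 0.07). Dis3l2, the nuclease that degrades uridylated let-7 precursors, rose with 0.72 (SE 0.10), and Trim71 belongs to this list too. With DESeq2, 1 of the 20 was called higher and 3 lower. Of the host genes of let-7 hairpins, Huwe1, which carries Mirlet7f-2 and Mir98, had a log2 fold change of -0.74 (SE 0.05), and Wdr82, which lies at Mirlet7g, had 0.39 (SE 0.04). Both passed in edgeR, whereas DESeq2 called Huwe1 alone, and the other listed hosts had no row in the input table.

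m6A-RIP pulls down RNA fragments that carry N6-methyladenosine, the most frequent internal modification of mRNA. Of the 10 targets, 5 had rows in this table, and all 5 passed in edgeR when the rows of a gene were summed: Hmga2, Dicer1 and Igf2bp2 were lower, and Igf2bp3 and Hic2 were higher in Lin28a+ MuSCs. Among all 9416 genes tested, 66.3% passed, 32.5% as higher and 33.8% as lower. Igf2bp1, Arid3b, E2f5, Nras and Tgfbr1 had no row. A row was present for 65.5% of all genes tested for RNA.

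Hmga2 was at 100.5 and 104.5 CPM in the control m6A-RIP libraries and at 23.0 and 20.4 CPM in the Lin28a+ libraries, a log2 fold change of -2.24 (SE 0.07, adjusted p 6.5e-11 in edgeR). Each of its 3 rows fell, with log2 fold changes of -2.30, -2.33 and -2.04. Dicer1 was at 90.4 and 83.3 CPM against 57.5 and 48.9 CPM (log2 fold change -0.71, SE 0.07). All 6 of its rows had negative fold changes, between -0.77 and -0.27, and 5 of them passed. Igf2bp2 was at 87.2 and 84.7 CPM against 67.8 and 65.2 CPM (log2 fold change -0.37, SE 0.05), and its 3 rows lay between -0.33 and -0.31. In these 3 genes the Lin28a+ libraries lay below the controls, as they did for the RNA. Taken by row, 13 of the 14 rows of the targets passed, where 61.8% of all 18881 rows did.

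Igf2bp3 and Hic2 stood apart from the other targets by the size of their m6A-RIP signal. Each had a single row in the table. The Hic2 row held 247169 and 143578 counts in control and 258488 and 293605 counts in Lin28a+ MuSCs, which ranked it 6 of 18881 rows by mean level. The Igf2bp3 row held 176895 and 127265 counts in control and 155317 and 218462 counts in Lin28a+ MuSCs and ranked 10. Every other row of a target ranked 4183 or lower. The Hic2 row alone took 0.672% to 1.09% of all counts of a library, and the Igf2bp3 row 0.556% to 0.701%. In the input, Hic2 was low in both genotypes, at percentile 18.3 in control and 21.1 in Lin28a+ MuSCs. Igf2bp3 was at percentile 31.1 in control and 64.1 in Lin28a+ MuSCs. As log2(CPM + 1), the m6A-RIP level of Hic2 was 9.95 above its input level in control and 10.5 above it in Lin28a+ MuSCs, ranks 3 and 4 of 7943 genes. For Igf2bp3 the difference was 8.84 and 7.62, ranks 11 and 23. The median over the 7943 genes was 0.64 in control and 0.61 in Lin28a+ MuSCs. Of the 25 rows with the highest m6A-RIP level, 17 belonged to genes with an input level, and 10 of these rows belonged to genes below the median input level of all genes tested. The table gives no position for its rows, so whether these counts come from one short stretch was not tested.

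**Figure D3:**
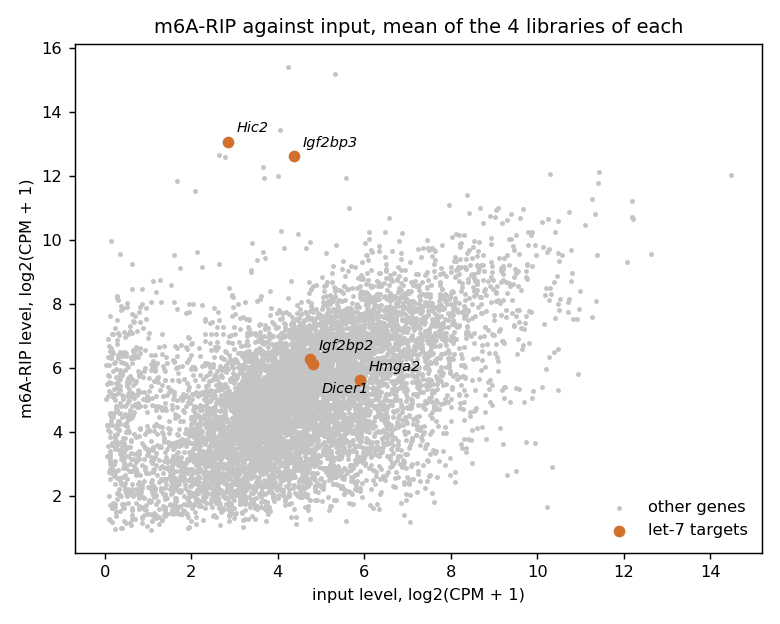
m6A-RIP level (y axis) against input level (x axis) for 7943 genes, both as log2(CPM + 1) averaged over 4 libraries; orange points are the 5 let-7 targets with m6A-RIP rows. Hmga2, Dicer1 and Igf2bp2 lie within the cloud, and Hic2 and Igf2bp3 lie above it with a few other genes.

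Between the genotypes these signals moved less than the RNA of Igf2bp3 did. In scaled levels Igf2bp3 was at 5366 and 5754 CPM in the control m6A-RIP libraries and at 6754 and 7280 CPM in the Lin28a+ ones (log2 fold change 0.34, SE 0.04), a 1.26-fold rise. Hic2 was at 7498 and 6491 CPM against 11241 and 9784 CPM (log2 fold change 0.59, SE 0.06), with both Lin28a+ libraries above both controls.

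The change of m6A-RIP was then set against the change of input in 1 model with an interaction of genotype and assay. Igf2bp3 was the only one of the 5 targets to pass, and it fell, with a log2 difference of -1.33 (SE 0.14, adjusted p 0.00019 in edgeR), that is, a 1.26-fold rise of m6A-RIP against a 3.13-fold rise of RNA. This value rests on the single Igf2bp3 row described above, whose counts could not be placed on the transcript, so whether they come from methylated Igf2bp3 mRNA was not tested. Among all 7943 genes, 7.14% passed, 4.09% as lower. Hmga2 had 0.22 (SE 0.12), Igf2bp2 -0.08 (SE 0.12), Dicer1 -0.22 (SE 0.16) and Hic2 0.47 (SE 0.39), none of which passed. The median over all genes was -0.03. By the labels, the m6A-RIP libraries were made from polyA RNA and the input from total RNA, whereas the study's methods take the m6A-RIP input from a portion of the purified mRNA, and the sources do not settle which holds for this table. The interaction compares the change between genotypes within each kind of library.

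In the same m6A-RIP comparison by gene, the 18 other let-7 targets tested gave 3 higher and 8 lower, and the 13 genes of microRNA processing tested gave 2 higher and 7 lower, where 32.5% of all genes were higher and 33.8% lower. Of the hosts of let-7 hairpins, Huwe1 (log2 fold change -0.72) and Mir100hg (-0.98) were lower. Mirlet7i, the gene of a let-7 hairpin itself, was higher (0.74), a call that was lost without control m6A-RIP replicate 2. A row named for it held 104 and 52 counts in control and 112 and 135 counts in Lin28a+ MuSCs. Among single rows at let-7 loci, those named for Mir98 (-0.77, SE 0.17) and for Mir99b (-1.60, SE 0.24), a neighbour of Mirlet7e, were lower too.

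Genes whose changes were most like those of Hmga2, by the distance of the pair of log2 fold changes in RNA and m6A-RIP over 7408 genes, were Srgap1 (distance 0.073), B3galt2 (0.10) and Hspb7 (0.14). For Igf2bp3 they were Mblac1 (0.14), Kcnab3 (0.16) and Myg1 (0.17). Each gene was placed by 8 libraries.

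RIP-seq reads the RNA that comes down with an antibody to an RNA-binding protein, and a peak marks a stretch of a transcript where reads collect. Of the 8 targets tested for RNA, 6 had Igf2bp3-RIP peaks (Hmga2, Igf2bp2, Igf2bp3, Nras, Dicer1 and Tgfbr1), and 32.8% of all genes tested for RNA had 1 or more. Of the same 8, 4 had Lin28a-RIP peaks (Igf2bp3, Nras, Dicer1 and Tgfbr1), against 25.3% of genes. Of the 6 with Igf2bp3-RIP peaks, these 4 had both kinds, as did 61.5% of all genes with Igf2bp3-RIP peaks. Of the 19 other let-7 targets tested for RNA, 11 had Igf2bp3-RIP peaks and 6 had Lin28a-RIP peaks, and of the 20 genes of microRNA processing, 14 and 15 had them. Neither table lists a peak for Igf2bp1, Arid3b, E2f5 or Hic2. Positions below are those of the deposited peaks, for which the submitters' processing notes name mm10, and they were set against RefSeq genes of GRCm38.p6.

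**Figure D4:**
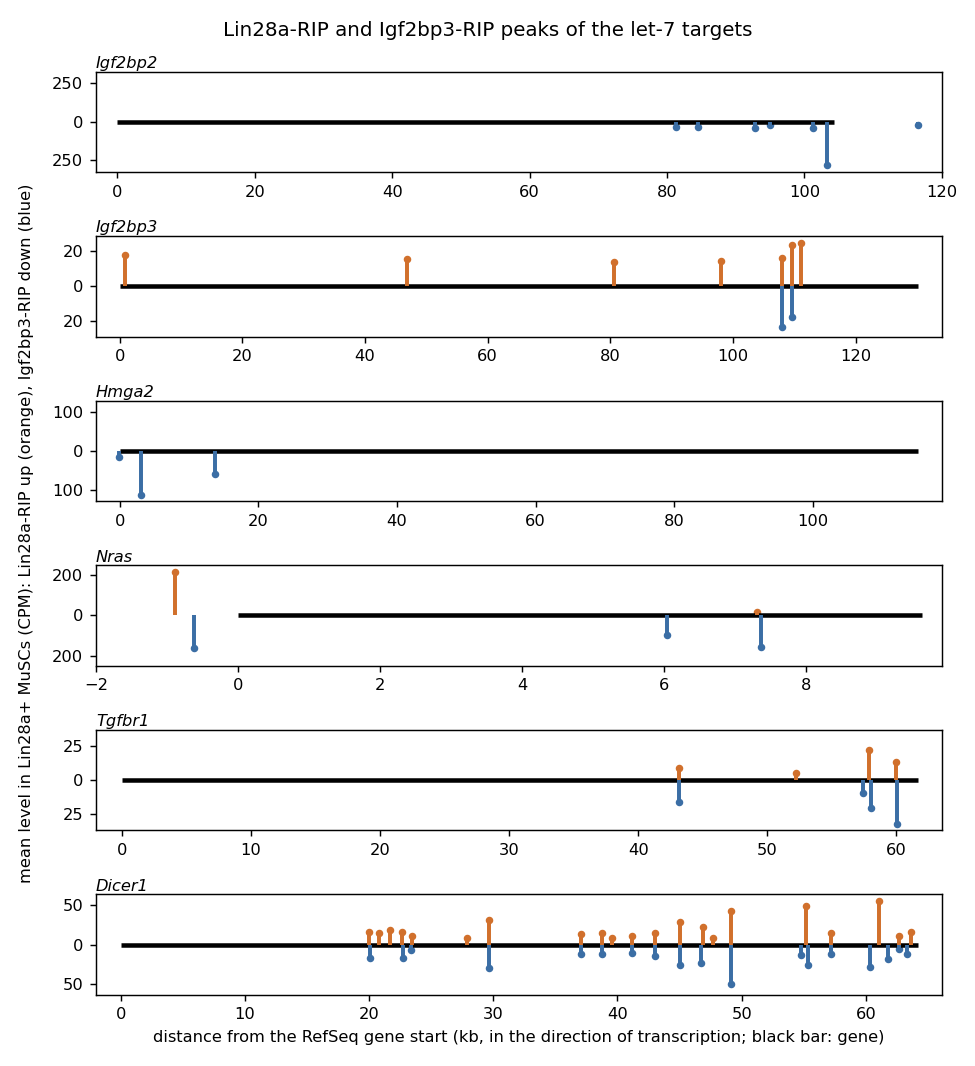
Peaks of the 6 let-7 targets with Igf2bp3-RIP peaks, by distance of the peak's centre from the RefSeq gene start (kb, x axis), with the mean level in Lin28a+ MuSCs (CPM, y axis) drawn upwards for Lin28a-RIP and downwards for Igf2bp3-RIP; the black bar is the gene. Hmga2 has Igf2bp3-RIP peaks only near its start, Dicer1 has peaks of both proteins along most of its length, and the highest Nras peak of both proteins lies before the gene start.

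Dicer1 (chr12:104687740-104751968) carried most of the peaks of the set, 21 in Lin28a-RIP and 18 in Igf2bp3-RIP. All 18 Igf2bp3-RIP peaks overlapped a Lin28a-RIP peak by at least 1 bp, and so did 16 of the 21 Lin28a-RIP peaks in the reverse direction. Its Lin28a-RIP level was 427 and 424 CPM, which on the log2(CPM + 1) scale was 4.17 above its input level in Lin28a+ MuSCs. This was percentile 83.8 of the 3013 genes with Lin28a-RIP peaks and a row in the input table, tested for RNA or not. Its Igf2bp3-RIP level was 306 and 460 CPM in the control libraries and 263 and 421 CPM in Lin28a+ MuSCs, overlapping ranges.

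Tgfbr1 (chr4:47353222-47414926) had 4 peaks of each protein, all in the later part of the gene from 43.2 kb after its start. All 4 of its Igf2bp3-RIP peaks and 3 of its 4 Lin28a-RIP peaks overlapped a peak of the other protein. Its Lin28a-RIP level was 1.69 above input, at percentile 49.6.

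Igf2bp3 (chr6:49085218-49215469) had 7 Lin28a-RIP peaks and 2 peaks in the RIP of its own protein. Both Igf2bp3-RIP peaks, at chr6:49105669-49105869 and chr6:49107393-49107614, coincided with Lin28a-RIP peaks. Both lie in a stretch where RefSeq also places Malsu1, so reads from the pair of genes cannot be told apart by position, and the same holds for 5 of the 7 Lin28a-RIP peaks. The Lin28a-RIP level of Igf2bp3 was 126 and 127 CPM, 1.83 above input at percentile 51.7, near the median of 1.72 over the 3013 genes.

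The peaks named for Nras were in part not on Nras (chr3:103058285-103067914). The larger of its 2 Lin28a-RIP peaks lay before the gene start, and it held 92.8% and 93.2% of the Lin28a-RIP counts named for Nras. Of its 3 Igf2bp3-RIP peaks, 1 also lay before the start and held 31.6% to 48.9% of the counts. With all peaks, Nras was 2.68 above its input level in Lin28a-RIP (percentile 64.5). With the peak inside the gene alone, an alternative added after the positions had been seen, it was at -1.08 (percentile 13.9).

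Hmga2 (chr10:120361268-120476469) and Igf2bp2 (chr16:22059009-22163299) had Igf2bp3-RIP peaks and no listed Lin28a-RIP peak. The 3 peaks of Hmga2 lay within 13.7 kb of its start, in a gene of 115 kb, and 1 of them overlapped the lncRNA Gm51785. Those of Igf2bp2 lay in the last part of the gene. The highest, chr16:22059127-22061023, sat at the gene's end with a mean level of 259 CPM, and 1 of the 7 lay beyond the gene in Senp2. Over input, the Igf2bp3-RIP level of Igf2bp2 was 3.77 higher in control and 4.29 higher in Lin28a+ MuSCs, at percentiles 85.2 and 85.7 of 3922 genes.

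Over the whole set, 23 of the 34 Lin28a-RIP peaks (67.6%) shared at least 1 bp with a peak of Igf2bp3-RIP, where 52.4% of all 21616 Lin28a-RIP peaks did. In the other direction it was 26 of 37 Igf2bp3-RIP peaks (70.3%), against 60.4% of all 19465. The peaks of Dicer1 make up most of both counts. When each peak of a pair had to be covered by at least 50%, the shares were 52.9% and 43.0% of Lin28a-RIP peaks, and 48.6% and 47.7% of Igf2bp3-RIP peaks.

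Between genotypes, no target passed in Igf2bp3-RIP. By gene, 0 of the 6 targets passed in edgeR, where 0.287% of all 4527 genes did, and 1 target had an unadjusted p under 0.05, where 8.44% of genes had. By peak, 0 of 37 passed, where 0.123% of all 19465 did, and 2 had an unadjusted p under 0.05, where 5.22% of peaks had. DESeq2 called 1 of the 6 targets and 2 of the peaks, those of Igf2bp3, where it called 2.54% of genes and 1.35% of peaks.

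The one target with libraries far apart was Igf2bp3 itself. Its Igf2bp3-RIP level was 14.9 and 14.0 CPM in the control libraries and 41.1 and 40.3 CPM in Lin28a+ MuSCs. The libraries of a group lay close together and the groups did not overlap, and the log2 fold change was 1.50 (SE 0.24), with an adjusted p of 0.10 in edgeR and 4.7e-05 in DESeq2. Its 2 peaks had log2 fold changes of 1.44 (SE 0.30) and 1.56 (SE 0.29), with adjusted p of 0.27 and 0.21 in edgeR. Both peaks lie where RefSeq also places Malsu1, so how much of this signal came from either gene was not tested. Values of Igf2bp3-RIP relative to input were centred on the 3922 genes with both levels, and so are lower than the difference of the separate fold changes. With the scaling of the whole tables, an alternative added after seeing the data, they were 0.23 higher in the median, and the genes past the threshold went from 14 higher and 27 lower to 171 higher and 32 lower. Relative to input Igf2bp3 had -0.38 (SE 0.17, adjusted p 0.23 in edgeR), and -0.15 with the scaling of the whole tables.

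Hmga2 gave values that its replicates did not settle. Its Igf2bp3-RIP level was 95.0 and 209 CPM in the control libraries and 65.6 and 321 CPM in Lin28a+ MuSCs. The 2 Lin28a+ libraries enclosed both controls, and replicate 2 was the higher in each group. The log2 fold change was 0.35 (SE 0.73), and it was -1.17 without Lin28a+ replicate 2, -0.11 without control replicate 1 and 1.10 without Lin28a+ replicate 1. Relative to input, with RNA far lower in Lin28a+ MuSCs, the log2 difference was 2.60 (SE 1.01), with an adjusted p of 0.18 in edgeR. It was 3.35 with an adjusted p of 0.029 without Lin28a+ replicate 1, and 1.07 without Lin28a+ replicate 2.

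None of the other 4 targets passed in Igf2bp3-RIP. Tgfbr1 was at 52.1 and 58.2 CPM in control and at 82.5 and 72.7 CPM in Lin28a+ MuSCs, without overlap, with a log2 fold change of 0.49 (SE 0.21). Relative to input it had 0.83 (SE 0.20, adjusted p 0.083 in edgeR), and 1.06 with an adjusted p of 0.039 with the scaling of the whole tables. Igf2bp2 had 0.23 (SE 0.25) and relative to input 0.31 (SE 0.27), or 0.54 with that scaling. Nras had 0.09 (SE 0.22) and relative to input 0.32 (SE 0.21), or 0.55 with that scaling. Dicer1 had -0.16 (SE 0.32) and relative to input 0.12 (SE 0.39), or 0.35 with that scaling. None of the 6 targets passed relative to input in edgeR, where 1.05% of 3922 genes passed, and Tgfbr1 alone passed with the scaling of the whole tables, where 5.18% did. At an unadjusted p under 0.05 there were 2 (Hmga2 and Tgfbr1), where 24.1% of genes had such a p, and DESeq2 called 0, where it called 1.76% of genes.

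**Figure D5:**
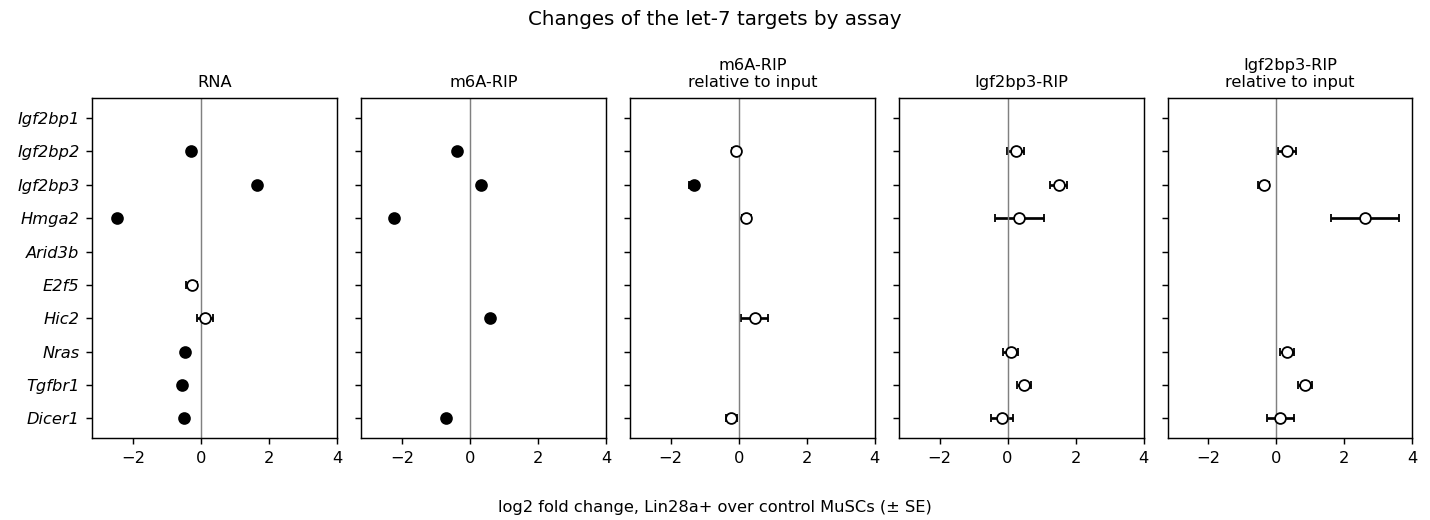
Log2 fold change of Lin28a+ over control MuSCs (x axis, ± SE) for each let-7 target (rows) in RNA, m6A-RIP, m6A-RIP relative to input, Igf2bp3-RIP and Igf2bp3-RIP relative to input; filled points passed at an adjusted p under 0.05 in edgeR, open points did not, and a blank means that the target was not tested; bars shorter than the point are hidden. Hmga2 has the widest SE in both Igf2bp3-RIP panels.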

How the data were processed

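The 14 libraries were grouped by genotype and assay from the labels. Per the paper's methods, adapters and low-quality bases were removed and reads were aligned with Hisat2 2.0.4, with MACS2 1.4.3 named for m6A peaks and DESeq2 1.42.0 for the transcriptome. The processing notes name mm10 and GRCh38, a human build, whereas the identifiers are those of mouse genes. The program that counted and the peak threshold are not given in the sources used here. For the RIP assays, the authors deposited raw counts per peak. The input table the authors deposited holds estimated counts per gene, with decimals, so library sums are not numbers of reads, and they were rounded to whole numbers for the tests. The Lin28a+ columns of the input and m6A-RIP tables carry m6A-RIP names, which in the m6A-RIP table are the same for both, so they were assigned to their group as libraries a and b. Lin28a itself was not analysed here.

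Tests were edgeR 4.0.16 quasi-likelihood fits in R 4.3.3 over whole tables, with TMM factors and filterByExpr, called at a Benjamini-Hochberg adjusted p under 0.05. They were checked on simulated counts. RIP relative to input was the interaction of genotype and assay, with TMM factors within each assay from the genes of both tables. Levels of RIP over input used a pseudocount of 1 CPM and had no test. Alternatives were DESeq2, RLE factors, total counts, other filters and each library left out. The targets, other lists and named genes (all 10 targets, their nearest genes by fold changes, and the smallest p of other lists) were chosen with earlier results of these data known.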

Additional observations from a re-analysis of the deposited data

How the results depend on the processing

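Directions and calls of the targets in m6A-RIP by gene and in m6A-RIP relative to input were the same under every alternative run, including DESeq2, RLE factors, total counts, other filters and leaving out each library. Total counts in place of TMM shifted the median m6A-RIP row by -0.15 and the median of Igf2bp3-RIP relative to input by 0.14 (log2). By m6A-RIP row, DESeq2 called 10 of the 14 rows in place of 13 (54.4% of all rows), and leaving out a library called 9 to 13. For RNA, DESeq2 called 2 of the 8 targets in place of 6 and 3039 genes in place of 6432, and leaving out a library called 5 to 6. The RNA fold change of Hic2 ran from -0.081 to 0.26 when a library was left out. In Igf2bp3-RIP, DESeq2 called 1 target in place of 0 and 2 of their peaks in place of 0. Leaving out a library gave -1.17 to 1.10 for Hmga2, -0.020 to 0.24 for Nras and -0.50 to 0.16 for Dicer1 by gene, and -1.15 to 1.13, -1.15 to 1.08 and -0.80 to 0.27 for the 3 Hmga2 peaks. Relative to input, it called 0 to 1 target, and Dicer1 ran from -0.23 to 0.45. The scaling of the whole tables, added after seeing the data, called 1 (Tgfbr1) in place of 0. Without the peak outside Nras, the Lin28a-RIP level over input was -1.08 for Nras in place of 2.68, and the median of the 4 targets was 1.76 in place of 2.26, the alternative having been added after the positions were seen.

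The Igf2bp3-RIP libraries share replicate numbers across genotypes. Over 19465 peaks, replicate 2 minus replicate 1 correlated between control and Lin28a+ MuSCs (r = 0.70), but no label ties a number to a shared preparation, and there are only 2 pairs. With a replicate block, 1 target passed by gene (Igf2bp3), 2 peaks passed (both of Igf2bp3), and 3 targets passed relative to input (Hmga2, Tgfbr1 and Nras), where 8.26% of genes, 10.2% of peaks and 33.1% of genes passed in all. With 2 libraries a group, the standard errors rest on a spread shared among genes.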
